A study of Sus scrofa with 8 samples.

Results

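The enzymes of the tricarboxylic acid cycle, with those of the malate-aspartate shuttle and the reactions that feed or drain the cycle, were followed in the right ventricle of pigs with a banded pulmonary artery. The list holds 34 genes, of 31908 gene models counted. The symbols in the authors' deposited table matched 31 of them, MPC1 was matched through its one-to-one human orthologue name, and SDHA and SDHAF2 were matched by gene ID in a reference table of gene names. The values are RNA counts from bulk sequencing of right ventricular tissue, 1 library per animal. In 4 Yorkshire cross piglets, all castrated males of 4.5 ± 0.6 weeks and 6.4 ± 1.3 kg, a tape was tightened around the main pulmonary artery until peak systolic pressure in the right ventricle reached about 30 to 40 mmHg. The 4 controls were Yorkshire cross pigs of similar age and weight, housed for 8 weeks, whose treatment is given as none. The sources used here do not give the sex of the controls, a sham operation or the time between banding and tissue collection. Banding, surgery, sex and age at collection therefore cannot be told apart.

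The tricarboxylic acid cycle runs in the mitochondrial matrix. It oxidises acetyl-CoA from fatty acids, pyruvate and ketone bodies to carbon dioxide and passes the electrons to the respiratory chain as NADH and FADH2, which is the main route to ATP in heart muscle. The malate-aspartate shuttle uses paired malate dehydrogenases and aspartate aminotransferases in the cytosol and the matrix to carry the electrons of cytosolic NADH into mitochondria. Intermediates that leave the cycle are replaced from pyruvate and amino acids, which is called anaplerosis.

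The libraries held 31400659 to 34169120 counts in banded animals and 31033679 to 34183338 counts in controls. Levels are given as CPM, the counts relative to a library size corrected by the trimmed mean of M values (TMM). The 8 matched cardiomyocyte markers summed to 39170 to 50760 CPM in banded animals and 29650 to 40320 CPM in controls, most of it from MYL2, TNNT2, TNNC1 and MYL3. Among them the cardiac troponin I gene TNNI3 had low counts, at 2.44 to 11.3 CPM in banded animals and 12.6 to 20.6 CPM in controls. TNNT2 averaged 9748 CPM in banded animals and 8140 CPM in controls. Why TNNI3 was counted so far below TNNT2 was not tested. Of the 8 markers, 4 were higher and 4 lower on average in banded animals, so the sum does not give a shared direction. MYL2 averaged 17465 CPM in banded animals and 9264 CPM in controls, while MYBPC3 averaged 2314 against 2905 CPM and RYR2 388 against 648 CPM. Transcripts of the mitochondrial genome took 30.5% to 39.7% of the counts in banded animals and 35.4% to 43.9% in controls. In banded animal 1 the 12 adipocyte markers summed to 1340 CPM, against 211 to 319 CPM in the other banded animals and 382 to 485 CPM in controls, and 11 of the 12 were highest there among the 8 libraries. In banded animal 4 the 8 matched blood cell markers summed to 1790 CPM, against 130 to 174 CPM in the other banded animals and 75.9 to 323 CPM in controls. The haemoglobin gene HBB alone gave 1730 CPM of that sum. HBM, ALAS2, AHSP and S100A9 were also highest in banded animal 4, while SLC4A1, S100A8 and S100A12 were not. In bulk tissue, fewer cells of a type and less RNA per cell cannot be told apart. The part of these marker levels in the results was not tested.

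Most of the list differed by little between banded and control ventricles, and IDH3B and SUCLG2, both lower in banded animals, were the members that passed the test. Of the 34 genes, 33 passed the filter on low counts. Between banded and control animals 2 of the 33 (6.06%) were called lower and 0 higher at an adjusted p under 0.05 in edgeR's quasi-likelihood test. Of all 13697 genes tested 6.97% were called, 3.47% higher and 3.50% lower. At an unadjusted p under 0.05 there were 2 higher and 3 lower (15.2%), against 23.8% of all genes. DESeq2 called 1 higher and 3 lower (12.5% of all genes), and limma-voom with quality weights 1 higher and 2 lower (9.79% of all genes). The authors' deposited table held an adjusted p under 0.05 for 3 members and for 10.6% of all its genes. The median log2 fold change, banded over control, was -0.07 over the 33 genes and 0.02 over all genes tested. The log2 fold change was under 0.5 in size for 27 of the 33 (81.8%) and for 74.2% of all genes. Banded and control values did not overlap for 5 of the 33 (15.2%), GLUD1 being higher and IDH3B, SUCLG2, DLD and ME2 lower, and for 15.9% of all genes tested (7.66% higher, 8.20% lower). Neither the share called nor the share without overlap stood far from that of all genes. The 95% interval of the log2 fold change lay within a 2-fold change in both directions for 29 of the 33 (87.9%), and for 65.0% of all genes tested. It lay within a 1.5-fold change for 21 (63.6%), and for 31.8% of all genes. Interval width depends on abundance, and among genes with a mean of at least 50 CPM the interval lay within 1.5-fold for 18 of 25 members (72.0%) and for 1052 of 2102 genes.

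**Figure D1:**
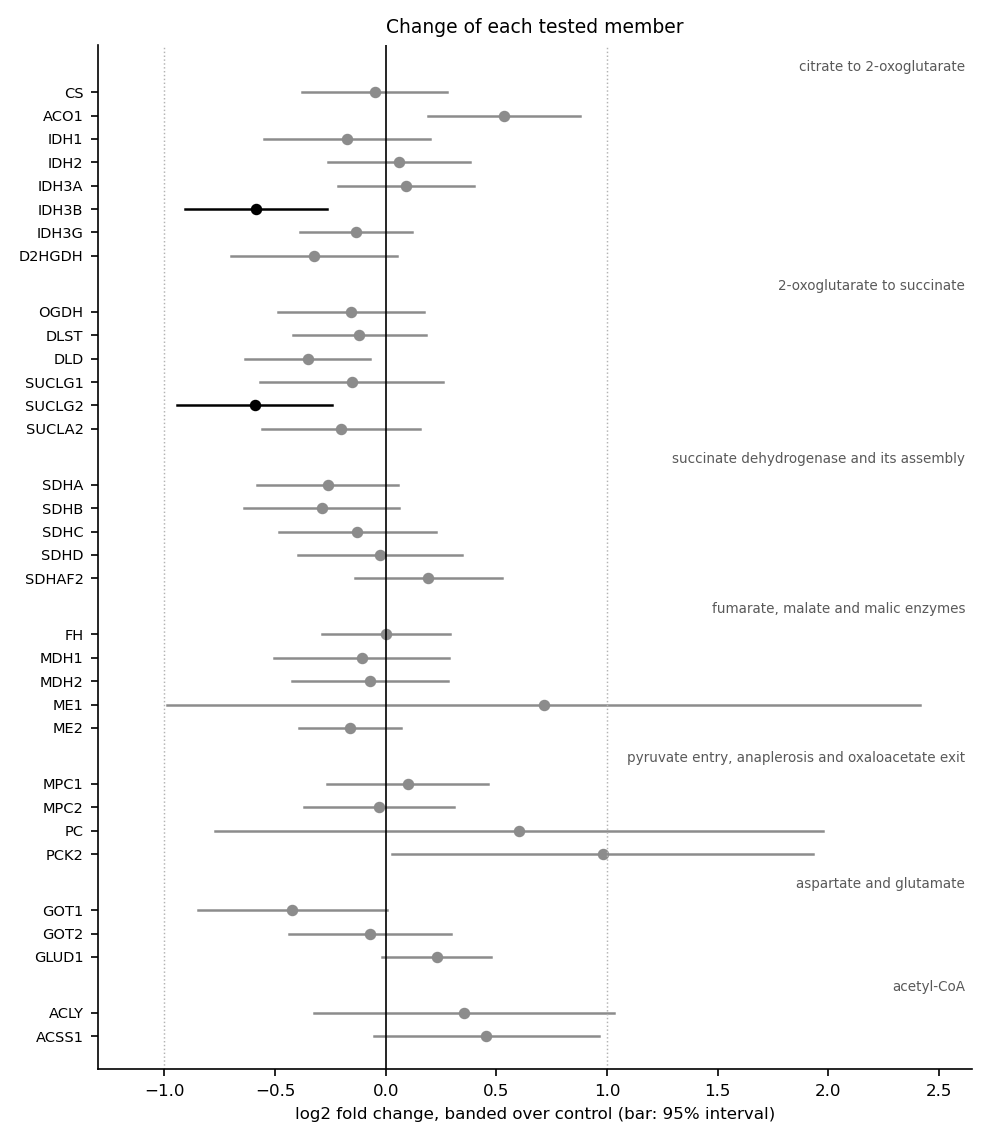
Log2 fold change, banded over control, of the 33 tested genes (points) with the 95% interval (bars), grouped by the step they serve; black marks an adjusted p under 0.05 and the dotted lines mark a 2-fold change. IDH3B (-0.59) and SUCLG2 (-0.59) are the black points, and the intervals of ME1, PC, PCK2 and ACLY reach past a 2-fold higher level.

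Among the enzymes from citrate to 2-oxoglutarate, IDH3B fell. It encodes the beta subunit of the NAD-dependent isocitrate dehydrogenase, the regulated enzyme that makes 2-oxoglutarate in the matrix. Its model lies on chromosome 17 (32955101 to 32960106, plus strand, Sscrofa11.1). IDH3B stood at 163, 124, 149 and 166 CPM in banded animals 1 to 4, against 216, 223, 197 and 268 CPM in controls 1 to 4. Every banded animal was below every control, and banded animal 2 was the lowest. The means were 150 ± 19.2 CPM in banded animals and 226 ± 30.2 CPM in controls (SD, n = 4 each), a log2 fold change of -0.59 ± 0.15 (SE) with an edgeR adjusted p of 0.0359. In the authors' deposited table, where positive values are higher in controls, IDH3B had a value of 0.58 on the log2 scale and an adjusted p of 0.00696. Without 1 library the log2 fold change stayed between -0.65 and -0.49, but the adjusted p was 0.0539 to 0.0923 without banded animal 1, 2 or 3 or any 1 control.

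The partner subunits of IDH3B did not pass the test. IDH3A, the catalytic alpha subunit, was at 263, 226, 288 and 301 CPM in banded animals, against 277, 232, 230 and 273 CPM in controls (log2 fold change 0.09 ± 0.14, adjusted p = 0.744). IDH3A values overlapped almost entirely between the groups. IDH3G, the gamma subunit, averaged 82.0 ± 6.77 CPM in banded animals and 89.9 ± 5.49 CPM in controls (adjusted p = 0.529). IDH2, the mitochondrial NADP-dependent enzyme and the most abundant gene of this step per kilobase, was at 489, 378, 515 and 512 CPM in banded animals, against 475, 441, 407 and 493 CPM in controls. Its log2 fold change was 0.06 ± 0.15 (adjusted p = 0.849). IDH1, the cytosolic NADP-dependent enzyme, averaged 22.4 ± 2.97 CPM in banded animals and 25.3 ± 5.41 CPM in controls (adjusted p = 0.583). CS, citrate synthase, the entry enzyme of the cycle, averaged 533 ± 73.7 CPM in banded animals and 552 ± 56.4 CPM in controls. The 95% interval of the log2 fold change of CS was -0.38 to 0.28.

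ACO1 was the member of this step that lay nearest to a call on the higher side. It encodes cytosolic aconitase, which turns into an iron-responsive RNA-binding protein when it loses its iron-sulphur cluster. ACO1 was at 117, 87.5, 84.0 and 105 CPM in banded animals, against 62.4, 84.4, 67.5 and 57.4 CPM in controls. Banded animal 3 lay just under control 2, and the other banded animals lay above every control. The log2 fold change was 0.53 ± 0.16 with an edgeR adjusted p of 0.065. DESeq2 (adjusted p = 0.0224) and limma-voom (0.0435) called ACO1 higher, as did edgeR without banded animal 3 (0.046). In the authors' deposited table its value was -0.60 on the same inverted log2 scale, with an adjusted p of 0.00964. D2HGDH, which oxidises D-2-hydroxyglutarate to 2-oxoglutarate, ranged from 13.5 to 21.1 CPM in banded animals and from 17.5 to 24.9 CPM in controls (adjusted p = 0.278).

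All 6 genes from 2-oxoglutarate to succinate had a negative log2 fold change. Of the 33 tested members 21 were negative, and of all 13697 genes tested 6635. Without banded animal 2 the log2 fold change was -0.01 for SUCLG1, -0.03 for DLST and -0.08 for SUCLA2. It was then -0.17 for OGDH, -0.31 for DLD and -0.47 for SUCLG2. The called member was SUCLG2. It encodes the beta subunit of the GDP-forming succinate-CoA ligase, the step that makes GTP in the matrix, and lies on chromosome 13 (48564073 to 49090468, minus strand). SUCLG2 was at 127, 82.8, 109 and 129 CPM in banded animals, against 178, 150, 158 and 189 CPM in controls. The groups did not overlap, and banded animal 2 was again the lowest. SUCLG2 averaged 112 ± 21.5 CPM in banded animals and 169 ± 17.9 CPM in controls, and the log2 fold change was -0.59 ± 0.16 with an edgeR adjusted p of 0.0481. The authors' deposited table gave 0.58 (log2, positive where controls are higher) with an adjusted p of 0.019. The edgeR call ended without robust estimation (0.0528), without banded animal 1, 2 or 3 (0.0571 to 0.0762) and without any 1 control (0.0849 to 0.13), with log2 fold changes of -0.67 to -0.47 over the libraries left out.

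SUCLA2, the beta subunit of the ADP-forming ligase, did not pass. It was at 155, 109, 179 and 153 CPM in banded animals, against 192, 162, 150 and 181 CPM in controls (log2 fold change -0.20 ± 0.16, adjusted p = 0.49). SUCLG1, the alpha subunit that both ligases share, averaged 433 ± 97.7 CPM in banded animals and 481 ± 77.7 CPM in controls (adjusted p = 0.675). DLD, the dihydrolipoamide dehydrogenase shared by the pyruvate, 2-oxoglutarate and branched-chain dehydrogenase complexes, was at 225, 179, 176 and 212 CPM in banded animals, against 252, 257, 245 and 257 CPM in controls. The groups did not overlap, yet the log2 fold change of -0.35 ± 0.13 had an edgeR adjusted p of 0.126, and DESeq2 placed it just past the threshold (adjusted p = 0.0489). The other subunits of the 2-oxoglutarate dehydrogenase complex did not pass. DLST, its succinyltransferase and the most abundant gene of this step per kilobase, was at 233, 177, 219 and 245 CPM in banded animals, against 254, 223, 225 and 247 CPM in controls (adjusted p = 0.65). OGDH, its 2-oxoglutarate-oxidising subunit, averaged 348 ± 39.0 CPM in banded animals and 387 ± 57.3 CPM in controls (adjusted p = 0.572).

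**Figure D2:**
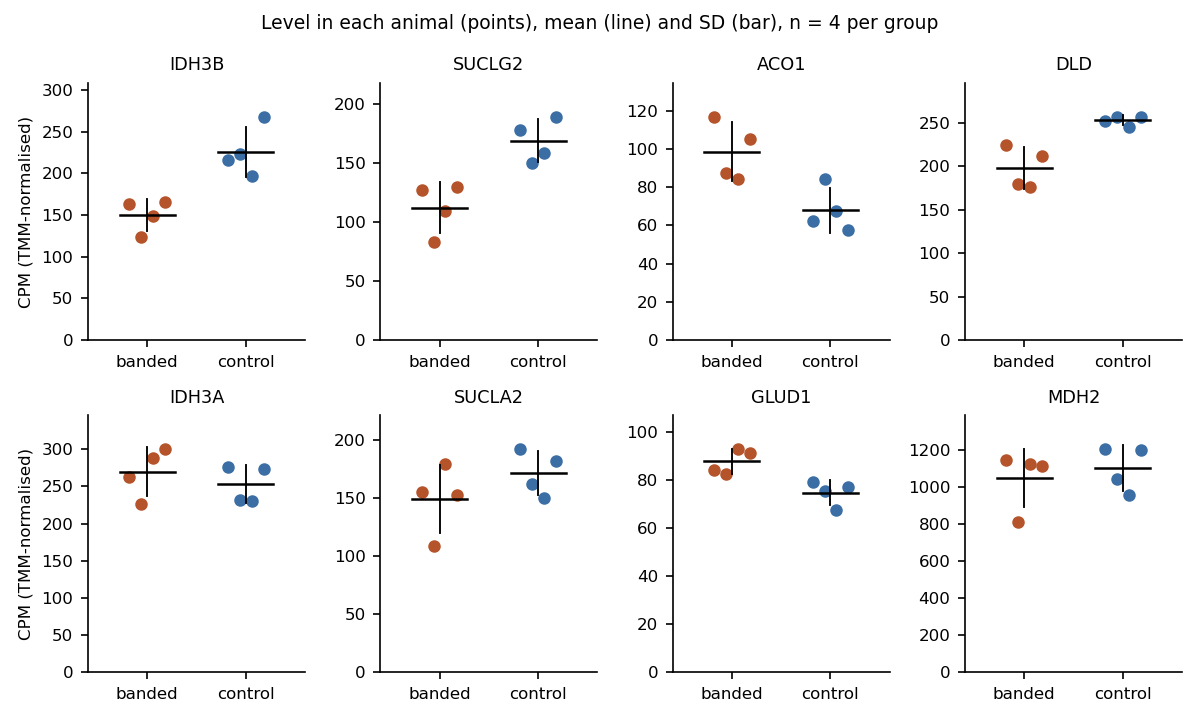
TMM-normalised CPM of 8 genes in each animal (points), with the mean (line) and SD (bar) of 4 banded and 4 control animals, axes from 0. IDH3B, SUCLG2 and DLD are lower and GLUD1 higher in every banded animal than in every control, while IDH3A, SUCLA2 and MDH2 overlap and ACO1 overlaps by 1 animal.

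Because subunits of an enzyme were measured in the same library, their proportions do not depend on library scaling. Counts per kilobase of the annotated exons were used, so the proportions, and the size of a difference between groups, depend on those lengths. IDH3B made up 40.5%, 37.7%, 36.6% and 38.1% of the counts per kilobase of IDH3A, IDH3B and IDH3G in banded animals, against 46.1%, 50.5%, 48.2% and 51.8% in controls. The share was lower in every banded animal than in every control. Without scaling by length the IDH3B share was 29.9% ± 1.35 in banded animals and 39.6% ± 2.37 in controls, again with no overlap. IDH3G held 8.09% ± 0.425 in banded animals and 7.61% ± 0.63 in controls. Of the succinate-CoA ligase genes, SUCLG2 held 13.8% ± 1.35 in banded animals and 17.5% ± 0.503 in controls, while SUCLA2 held 47.6% ± 3.09 and SUCLG1 38.6% ± 2.59 in banded animals, against 46.3% ± 2.96 and 36.2% ± 2.97 in controls. These proportions were computed after the values of the subunits were known and were not tested.

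Pairs of enzymes that share a reaction in different compartments or with different cofactors were compared as ratios of counts per kilobase, 5 ratios in all. The planned ratio of ME1 to ME3 could not be computed, for a reason given with the malic enzymes. The ratio of SUCLG2 to SUCLA2 was 0.315, 0.293, 0.234 and 0.325 in banded animals, against 0.356, 0.356, 0.405 and 0.401 in controls. The ratio of GOT1 to GOT2, the cytosolic and mitochondrial aspartate aminotransferases, was 0.654, 0.56, 0.669 and 0.727 in banded animals, against 0.799, 1.02, 0.8 and 0.769 in controls. For both ratios every banded animal was below every control. The mean log2 ratio differed by -0.39 for SUCLG2 to SUCLA2 and by -0.37 for GOT1 to GOT2, banded minus control. Each had a two-sided exact permutation p of 0.0286, the smallest that 70 assignments allow, and 0.0714 after Benjamini-Hochberg adjustment over the 5 ratios, so neither passed. The remaining ratios lay closer together, with differences of -0.03 for MDH1 to MDH2 (exact permutation p = 0.714), -0.21 for IDH1 to IDH2 (0.371) and -0.04 for IDH2 to IDH3A (0.486).

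**Figure D3:**
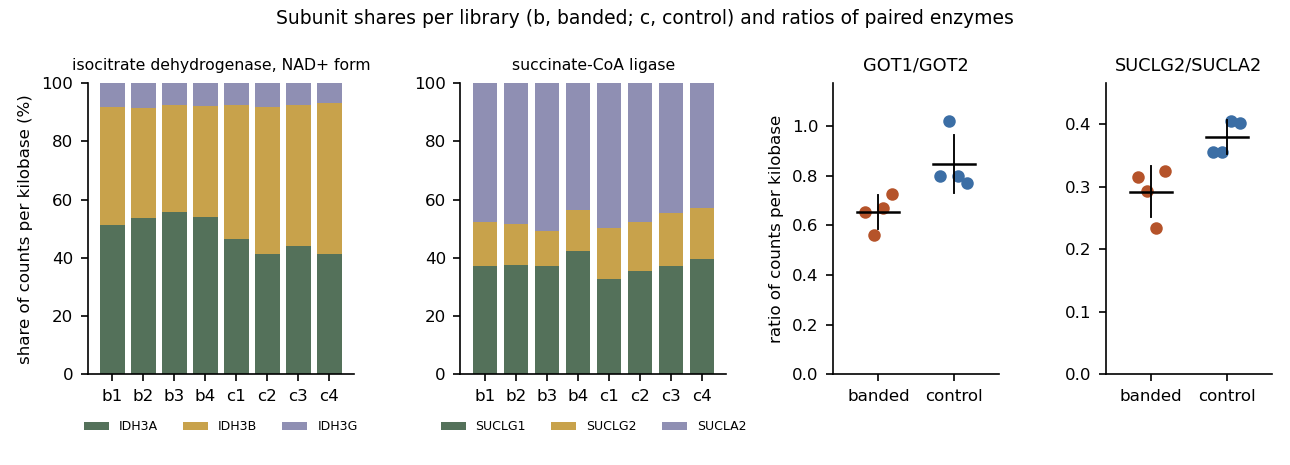
Left, share of each subunit in the counts per kilobase of its enzyme, in banded (b1 to b4) and control (c1 to c4) animals; right, ratios of counts per kilobase in each animal with mean and SD (n = 4 each). IDH3B holds 36.6% to 40.5% in banded animals and 46.1% to 51.8% in controls, and both ratios are lower in every banded animal than in every control.

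Succinate dehydrogenase, which is also complex II of the respiratory chain, had no called subunit. At an unadjusted p under 0.05 there were 0 of 5 genes in edgeR, and DESeq2 and limma-voom called 0. SDHB, the iron-sulphur subunit and the most abundant of the step per kilobase, was at 224, 161, 224 and 271 CPM in banded animals, against 278, 261, 252 and 284 CPM in controls. Banded animals 1 to 3 were below every control and banded animal 4 lay among them, with a log2 fold change of -0.29 ± 0.16 (edgeR adjusted p = 0.304). SDHA, the flavoprotein that oxidises succinate, averaged 403 ± 53.3 CPM in banded animals and 483 ± 48.6 CPM in controls (adjusted p = 0.306). The membrane anchors did not pass, SDHC with a log2 fold change of -0.13 ± 0.16 and SDHD with -0.03 ± 0.17. SDHAF2, which helps to attach the flavin to SDHA, had a log2 fold change of 0.19 ± 0.15 (adjusted p = 0.48).

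None of the 5 tested enzymes of fumarate and malate was called by edgeR, DESeq2 or limma-voom, and 0 had an unadjusted p under 0.05. FH, fumarase, averaged 164 ± 16.1 CPM in banded animals and 164 ± 17.7 CPM in controls, with a log2 fold change of 0.00 ± 0.13 and a 95% interval of -0.29 to 0.29. MDH2, the mitochondrial malate dehydrogenase and the most abundant of the 34 genes per kilobase, was at 1143, 810, 1124 and 1115 CPM in banded animals, against 1206, 1043, 958 and 1200 CPM in controls. Banded animal 2 stood below all the others, and the remaining banded animals lay within the control range. MDH2 had a log2 fold change of -0.07 ± 0.16 (adjusted p = 0.834). MDH1, its cytosolic partner in the malate-aspartate shuttle, averaged 458 ± 78.8 CPM in banded animals and 494 ± 91.4 CPM in controls (adjusted p = 0.766). ME2, the mitochondrial NAD-dependent malic enzyme that turns malate into pyruvate, was at 41.0, 45.6, 44.1 and 45.1 CPM in banded animals, against 48.1, 46.3, 51.4 and 50.6 CPM in controls. Its groups did not overlap, by a narrow margin, and the log2 fold change of -0.16 ± 0.11 did not pass (adjusted p = 0.392).

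ME3, the mitochondrial NADP-dependent malic enzyme, was listed at 0 in all 8 libraries. On chromosome 9, 99.2% of the 6492 exonic bases of its model are shared on the same strand with the model named FZD4, a Wnt receptor gene. The authors' counting command, per the file header, did not ask for reads that hit more than 1 gene to be counted, so the level of ME3 cannot be read from this table.

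For the aspartate and glutamate enzymes, none passed the test in edgeR, DESeq2 or limma-voom, and 0 of 3 had an unadjusted p under 0.05. GOT2, the mitochondrial aspartate aminotransferase, was at 508, 335, 432 and 491 CPM in banded animals, against 538, 419, 408 and 490 CPM in controls (log2 fold change -0.07 ± 0.17, adjusted p = 0.842). GOT1 was at 229, 129, 199 and 246 CPM in banded animals, against 296, 294, 225 and 259 CPM in controls. Banded animals 1 and 4 lay above control 3 and below the other controls, banded animals 2 and 3 lay below every control, and the log2 fold change was -0.42 ± 0.19 (adjusted p = 0.216), or -0.26 without banded animal 2. GLUD1, glutamate dehydrogenase, which feeds glutamate carbon into the cycle as 2-oxoglutarate, was at 84.1, 82.3, 92.8 and 91.0 CPM in banded animals, against 79.2, 75.3, 67.3 and 76.8 CPM in controls. Every banded animal was above every control, but the log2 fold change was small, 0.23 ± 0.11, and did not pass (adjusted p = 0.24).

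The 2 genes of the mitochondrial pyruvate carrier, through which pyruvate enters the matrix, did not pass. MPC2 was at 95.8, 69.0, 95.6 and 109 CPM in banded animals, against 96.7, 85.8, 86.8 and 108 CPM in controls (adjusted p = 0.933). MPC1 averaged 128 ± 27.2 CPM in banded animals and 120 ± 13.9 CPM in controls (adjusted p = 0.767). PCK2, the mitochondrial phosphoenolpyruvate carboxykinase that draws on oxaloacetate, was barely expressed. It was at 1.71, 1.96, 2.63 and 0.695 CPM in banded animals, against 1.06, 0.957, 0.927 and 0.594 CPM in controls, with banded animals 1 to 3 above every control and banded animal 4 among them. The log2 fold change was 0.98 ± 0.43 (adjusted p = 0.197).

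PC, ME1 and ACLY had the widest spread of the members between banded animals, with banded animal 1 at the top. These enzymes take part in fat synthesis in adipose tissue: pyruvate carboxylase (PC) replaces oxaloacetate, ATP-citrate lyase (ACLY) makes cytosolic acetyl-CoA from exported citrate, and cytosolic malic enzyme (ME1) makes NADPH. PC was at 35.7, 7.88, 4.95 and 8.27 CPM in banded animals, against 11.3, 9.77, 8.26 and 7.99 CPM in controls. ME1 was at 23.7, 3.24, 2.57 and 4.66 CPM in banded animals, against 8.10, 4.09, 5.00 and 3.63 CPM in controls. ACLY was at 68.0, 26.1, 36.0 and 25.4 CPM in banded animals, against 37.3, 24.8, 31.1 and 28.2 CPM in controls. In all of these genes banded animal 1 was the highest of the 8 animals, and the other banded animals lay within or below the control range. Banded animal 1 was also the library in which 11 of 12 adipocyte markers were highest, and the part of those markers in these values was not tested. The log2 fold changes were 0.60 ± 0.60 for PC, 0.71 ± 0.73 for ME1 and 0.36 ± 0.30 for ACLY, with adjusted p of 0.592, 0.609 and 0.522. Without banded animal 1 they turned to -0.41, -0.58 and -0.06. ACSS1, the mitochondrial acetyl-CoA synthetase that activates acetate, was at 115, 68.8, 83.5 and 162 CPM in banded animals, against 87.1, 79.6, 73.8 and 72.5 CPM in controls. Banded animals 1 and 4 were above every control, the log2 fold change was 0.46 ± 0.23 (adjusted p = 0.259), and it was 0.19 without banded animal 4. Banded animal 4 was also the library with the highest blood cell marker sum, most of it from HBB. The part of those markers in the ACSS1 value was not tested.

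**Figure D4:**
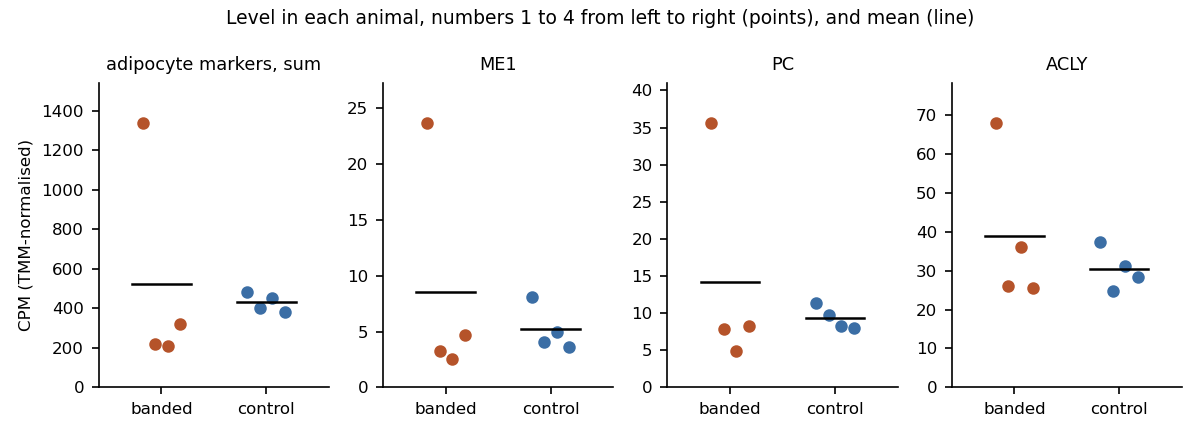
Summed CPM of 12 adipocyte markers and CPM of ME1, PC and ACLY in each animal, numbers 1 to 4 from left to right, with the mean as a line, axes from 0. Banded animal 1 is the highest point in every panel (1340, 23.7, 35.7 and 68.0 CPM).

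Per kilobase the members spanned a wide range of levels. By mean RPKM over the 8 libraries (CPM per kilobase of annotated exon), MDH2 led with 466, followed by IDH2 with 163, GOT2 with 156, MDH1 with 142 and GOT1 with 118, the only members above 100 RPKM. Thus both pairs of shuttle enzymes were among the leading 5. At the low end 9 members lay under 10 RPKM, among them ME1 (1.30), PCK2 (0.549) and ME3 (0). Banded animal 2 was the lowest of the 8 libraries for 19 of the 33 tested genes, and 29 of the 33 were below the mean of the controls in it. Over the 33 genes its median log2 difference from the control mean was -0.32, against -0.12 to 0.05 in the other banded animals and -0.11 to 0.10 in single controls (0.5 CPM added). The macrophage markers summed to 1351 CPM in banded animal 2, against 708 to 965 CPM in the other banded animals and 457 to 723 CPM in controls. Its fibroblast markers summed to 13080 CPM, against 7476 to 10550 CPM in the other banded animals and 8932 to 12230 CPM in controls. Most of that sum came from COL3A1 (6435 CPM), COL1A1 (2540 CPM) and COL1A2 (1603 CPM). COL1A1, COL1A2, LUM, FBLN1 and FAP were highest in banded animal 2 among the 8 libraries, while COL3A1, DCN, DPT and PI16 were not. PDGFRA, at 47.7 CPM in banded animal 2, was below every control (55.3 to 69.0 CPM). The cardiomyocyte markers of banded animal 2 summed to 39170 CPM, against 46290 to 50760 CPM in the other banded animals and 29650 to 40320 CPM in controls. The part of these markers in the values of banded animal 2 was not tested. Without banded animal 2 the median log2 fold change of the 33 genes was 0.02. The variation between banded animals was the larger, with a median coefficient of variation of 17.7% over the 33 genes in banded animals and 11.0% in controls.

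Other genes of the pathway, taken from a list of 30 with 26 matched and 20 tested, gave 1 called lower and 0 higher in edgeR (DESeq2 and limma-voom each 2 lower and 1 higher). The called gene was GPD2, the mitochondrial glycerol-3-phosphate dehydrogenase of the other shuttle for cytosolic NADH, at 11.2, 13.1, 10.2 and 10.2 CPM in banded animals, against 15.6, 20.5, 16.3 and 17.5 CPM in controls. All banded animals were below all controls, with a log2 fold change of -0.64 ± 0.15 (edgeR adjusted p = 0.0261). The GPD2 call ended without banded animal 1 or any 1 control (adjusted p 0.0511 to 0.0922). GPD1, its cytosolic partner and also one of the adipocyte markers, was at 44.4, 25.9, 21.7 and 20.4 CPM in banded animals, against 18.8, 14.0, 16.0 and 19.8 CPM in controls. Every banded animal was above every control and banded animal 1 was the highest, with a log2 fold change of 0.71 ± 0.24 that did not pass in edgeR (adjusted p = 0.1) but did in DESeq2 (0.0435) and limma-voom (0.0333). Without banded animal 1 the GPD1 value was 0.41. SLC25A12, an aspartate-glutamate carrier of the malate-aspartate shuttle, averaged 90.0 ± 18.4 CPM in banded animals and 126 ± 17.1 CPM in controls, and did not pass (-0.49 ± 0.16 on the log2 scale, edgeR adjusted p = 0.1). Without banded animal 4 its adjusted p was 0.0454. SLC25A13, the other aspartate-glutamate carrier, averaged 12.1 ± 2.17 CPM in banded animals and 9.48 ± 1.72 CPM in controls, with a log2 fold change of 0.35 ± 0.19 (adjusted p = 0.277).

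In the neighbouring pathways edgeR called a few genes, all lower, against 6.97% of all genes called and 3.50% called lower. Of 11 genes of the pyruvate dehydrogenase complex and its regulators 1 was called lower and 0 higher, while DESeq2 and limma-voom each called 1 lower and 1 higher. The gene called lower by all of them was PDP1, the phosphatase that activates the complex, with a mean of 19.8 ± 3.50 CPM in banded animals and 35.6 ± 2.34 CPM in controls and no overlap (log2 fold change -0.85 ± 0.14, adjusted p = 0.00688). PDP1 was called under all 17 alternatives. The gene called higher was PDK4, a kinase that inactivates the complex, at 540, 398, 2165 and 51.2 CPM in banded animals, against 60.6, 55.4, 89.6 and 158 CPM in controls. Banded animals 1 to 3 were above every control and banded animal 4 was below every control. The log2 fold change of PDK4 was 3.12 ± 1.06, with an adjusted p of 0.135 in edgeR, 0.0115 in DESeq2 and 0.0422 in limma-voom. It was 1.86 without banded animal 3, and edgeR called it without banded animal 4 (0.0411). Of 18 tested genes of fatty acid oxidation 2 were called lower and 0 higher, with 3 lower in DESeq2 and 2 lower in limma-voom. ACAA2, the mitochondrial thiolase, averaged 203 ± 30.4 CPM in banded animals and 345 ± 47.0 CPM in controls (adjusted p = 0.0157, and 0.0561 without control 1). ECI2, an enoyl-CoA isomerase, averaged 141 ± 29.1 CPM in banded animals and 211 ± 7.74 CPM in controls. Its adjusted p was 0.0477, and the call ended without robust estimation (0.0515), without banded animal 2, 3 or 4 and without any 1 control (0.0508 to 0.13). The median log2 fold change was -0.09 for fatty acid oxidation, -0.23 for the pyruvate dehydrogenase list and -0.07 for the members. Of 18 regulators of mitochondrial genes, such as the PGC-1 coactivators and their nuclear receptors, edgeR called 0, with 3 higher and 3 lower at an unadjusted p under 0.05, while DESeq2 called 3 higher and 2 lower and limma-voom 0 higher and 2 lower.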

How the data were processed

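The deposited counts are raw and hold fragments per gene model, made by the authors with featureCounts 1.6.2, per the file headers (mapping quality at least 10, strand setting 2) on Ensembl release 106 of Sscrofa11.1. HISAT2, Trimmomatic, DESeq2 and Subread are named in the submitters' processing notes without versions. The authors' deposited comparison table holds log2 fold changes (control over banded) with their standard error, a Wald statistic (a score), a mean normalised signal, p-values and the percent identity to the human orthologue. The command names 24 libraries, of which 8 were analysed.

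From the counts, 13697 genes passed filterByExpr (minimum count 10, minimum total 15). They were tested with the quasi-likelihood test of edgeR 4.0.16 (TMM, robust, in R 4.3.3), and p-values were adjusted by Benjamini-Hochberg over all of them. Depending on the library, 0 counts allow a level of 0.0878 to 0.0967 CPM, taken as 3 counts, which covers only counting error. Intervals of log2 fold changes are 95% intervals from the standard error. Within groups, libraries correlated at 0.9551 to 0.9859 (Spearman, across genes), and every pair differed by more than sampling noise (chi-square per degree of freedom of at least 29.2). Nothing beyond 1 library per animal is stated on how replicates were made. In simulated counts of 13477 genes for this comparison, 6 of 67 genes changed 1.5-fold, 29 of 65 changed 2-fold and 56 of 66 changed 4-fold were called. The changed genes were drawn from all levels of expression and were fewer than the 954 called in the data. The rates may therefore not hold for the members. Ratios used exact permutation tests (SciPy 1.17.1). The members, lists and tests were chosen with earlier results of these data known. Values in every animal are given for called members and for the most abundant member per kilobase of each step; called genes of the other lists are named. ACO1, DLD, IDH3A, SUCLA2, ME2, GOT1, GLUD1, PC, ME1, PCK2, ACLY, SLC25A12, SLC25A13, GPD1 and PDK4 were added after their values were seen. Alternatives were DESeq2 1.42.0, limma-voom (limma 3.58.1), 3 other scalings, 2 other filters, no robust estimation, omission of mitochondrial-genome genes and omission of each library. The labels give no batch and no pairing.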

Additional observations from a re-analysis of the deposited data

Results flagged for a closer look

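In 66 groups of 4 animals (33 genes, banded and control), 5 held an animal whose gap to the nearest other was larger, relative to the range of its group, than Dixon's 95% critical value, which chance gives in about 1 of 20 groups. In banded animals, MDH2 was at 810 CPM in animal 2, against 1110 to 1140 CPM in the others. ME1 was at 23.7 CPM in banded animal 1, against 2.57 to 4.66 CPM in the other banded animals. PC was at 35.7 CPM in banded animal 1, against 4.95 to 8.27 CPM in the other banded animals. In controls, SUCLG1 was at 597 CPM in control 4, against 431 to 451 CPM in controls 1 to 3. D2HGDH was at 17.5 CPM in control 4, against 23.8 to 24.9 CPM in the other controls.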

How the results depend on the processing

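The count of called members was 2 and that of all genes 954. DESeq2 called 4 members (ACO1, DLD, IDH3B and SUCLG2) and 1710 genes, and edgeR without robust estimation called 1 member (IDH3B). With 1 library left out, the members called numbered 0 to 2 and all genes 399 to 962. The 3 scalings, both filters and the omission of mitochondrial-genome genes each called IDH3B and SUCLG2. Scaling by library size alone gave medians of -0.09 over all genes and -0.18 over the members (log2), against 0.02 and -0.07. Called genes were then 37.4% higher, against 49.8%, and IDH2, IDH3A, FH and MPC1 took the other sign (FH also under upper-quartile scaling and the stricter filter). With 1 library left out, the log2 difference was -0.43 to -0.28 for GOT1 to GOT2 and -0.44 to -0.29 for SUCLG2 to SUCLA2, each with an exact permutation p of 0.0571, the smallest that 3 against 4 allows. All genes called numbered 399, 415 and 409 without control 1, 2 or 3. They numbered 786 without control 4 and 725 to 962 without 1 banded animal. Every one of these fits held 1 animal fewer, and the cause of the difference was not tested. The alternatives for genes outside the list of 34 and the subunit shares without length scaling were chosen after seeing the data. The ratio of ME1 to ME3 was not run, as ME3 had 0 counts. No paired analysis was possible because the labels give no replicate numbers shared between the groups. Most simulated 1.5-fold changes were not called at this size, so a member that missed the threshold is not shown to be equal between the groups.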
